A study of Mus musculus with 4 samples.

Results

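Oligodendrocyte precursor cells (OPCs) were studied in single-nucleus RNA sequencing data from the mouse cortex and hippocampus. Nuclei were chosen as OPCs by their own transcripts: a nucleus needed more than 600 detected genes, mitochondrial transcripts under 5%, at least 1 UMI (unique molecular identifier, 1 counted RNA molecule) of *Pdgfra*, and UMIs of at least 2 of *Cspg4*, *Vcan*, *C1ql1*, *Neu4*, *Rlbp1* and *Lhfpl3*. It had to lack *Enpp6*, *Mog* and *Mag* UMIs and to hold no more than 2 UMIs of *Slc17a7*, *Gad1* and *Gad2* together. The rule selected 1174 nuclei out of 36094 that passed the gene and mitochondrial limits, from 36619 deposited nuclei. By the paper's account, all 4 libraries came from C57BL/6J mice 5 weeks of age with both *Sel1l* alleles floxed. Each genotype had 2 libraries. Tissue was frozen, and nuclei were stained with propidium iodide and sorted. The paper describes the Sel1L fl/fl mice as age- and sex-matched littermates that served as controls. It describes the Sel1L SynCre mice as also carrying Cre recombinase under the Synapsin I promoter, a promoter chosen to delete *Sel1l* in neurons. The deletion was therefore not aimed at OPCs. OPC nuclei numbered 349 and 335 in the Sel1L fl/fl libraries and 258 and 232 in the Sel1L SynCre libraries, with 1686303, 1504815, 1131091 and 1031788 UMIs in the same order. The median OPC nucleus held 4085, 3705, 3934.5 and 3971 UMIs.

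OPCs are the dividing, migratory glia that give rise to myelinating oligodendrocytes during development and persist in the adult brain. They depend on platelet-derived growth factor acting through *Pdgfra*, carry the proteoglycan NG2 (*Cspg4*) and receive synaptic input from neurons. SEL1L is the adaptor of the ubiquitin ligase HRD1, and together they form the most conserved branch of endoplasmic reticulum-associated degradation (ERAD), which removes misfolded proteins from the ER. When misfolded proteins build up, the sensors IRE1α, PERK and ATF6 start the unfolded protein response (UPR). PERK, like other kinases that phosphorylate eIF2α, raises translation of the transcription factor ATF4, which induces genes of amino acid uptake and synthesis, tRNA charging and redox balance.

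The chosen nuclei carried OPC transcripts that the rule had not used. Values for the 4 libraries are given throughout with the 2 controls first and the 2 SynCre libraries after them, each pair in the order of its replicate number. The 10 such markers summed to 16317, 14682, 15082 and 14196 CPM (UMIs per 1000000 UMIs of the summed nuclei). The same sum was 3922 CPM in immature oligodendrocytes, 1190 CPM in mature oligodendrocytes, 2031 CPM in neurons and 4342 CPM in astrocytes, which were found by marker rules of the same kind. *Pdgfra* itself stood at 798, 1015, 925 and 910 CPM, and no other class exceeded 3.88 CPM. Further genes that set OPCs apart were *Cacng4* (an AMPA receptor auxiliary subunit), at 501, 587, 649 and 590 CPM against at most 15 CPM elsewhere, and *Kcnh8* (a potassium channel), at 320, 268, 285 and 253 CPM against at most 9.99 CPM. These levels describe the selection and were not tested.

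At the edges of the rule, 166 OPC nuclei had exactly 1 *Pdgfra* UMI, and 361 nuclei that met every other term had none. Exactly 2 of the 6 markers were seen in 151 OPC nuclei, while 62 nuclei with 1 marker stayed outside. The sum of the 3 neuronal genes was 0 in 784 OPC nuclei, 1 in 284 and 2 in 106, and 40 nuclei with a sum of 3 were left out. Markers of other cells were counted in OPC nuclei. At least 1 UMI of the 8 neuron markers was found in 99.1%, 97.9%, 97.3% and 99.1% of OPC nuclei. These markers summed to 2448, 3110, 2151 and 2224 CPM, against 13744 CPM in neurons, and most of this was *Meg3*, a long noncoding RNA, at 1417 CPM on average. The 8 mature oligodendrocyte markers summed to 195, 146, 86 and 86 CPM (12808 CPM in mature oligodendrocytes) with *Mog* and *Mag* at 0 by the rule and *Mbp* the most abundant. The 6 astrocyte markers summed to 35.0, 32.6, 42.4 and 68.8 CPM (2075 CPM in astrocytes), led by *Aqp4*. The 5 microglia markers summed to 111, 89.7, 76.9 and 52.3 CPM, led by *P2ry12*, and endothelial, leptomeningeal and pericyte marker sums each stayed at or under 19.6 CPM. Across libraries, 123 barcodes were shared by deposited nuclei, 10 OPC barcodes occurred in another library, and none was shared between OPC nuclei of different libraries.

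The targeted gene and the recombinase were examined first. *Sel1l* (chr12:91806043-91849157, minus strand of GRCm38) held 178 and 126 UMIs in OPC nuclei from libraries labelled as controls and 451 and 187 UMIs in those labelled Sel1L SynCre. Both SynCre libraries were above both fl/fl libraries, and Sel1L SynCre replicate 1 stood highest. After TMM scaling, which corrects library sizes and is used for all means with SD below, the level was 95.1 ± 17.2 CPM (SD, n = 2 libraries) against 290 ± 157 CPM (n = 2), a log2 fold change of 1.61 ± 0.23 (SE, adjusted p = 2.3e-05 in edgeR's quasi-likelihood test). DESeq2 gave the same size with an adjusted p of 0.24. UMIs counted anywhere in the gene do not check whether a part of it was deleted. In the other classes, *Sel1l* stood at 108, 102, 269 and 171 CPM in mature oligodendrocytes and at 95.4, 89.0, 154 and 131 CPM in neurons.

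The Cre transcript, which the authors had added to the reference, did not follow the labels. OPC nuclei held 28 Cre UMIs in Sel1L fl/fl replicate 1, none in Sel1L fl/fl replicate 2, 18 in Sel1L SynCre replicate 1 and 11 in Sel1L SynCre replicate 2. A count of 0 in Sel1L fl/fl replicate 2 allowed up to 1.99 CPM, against 16.6, 15.9 and 10.7 CPM in the 3 libraries that held Cre. In those same 3 libraries Cre stood at 4.51, 3.91 and 4.42 CPM in neurons and at 0.819, 0 and 0 CPM in mature oligodendrocytes. OPC nuclei without any UMI of the 3 neuronal genes held Cre at 16.5, 16.0 and 11.7 CPM, and those with 1 or 2 such UMIs held it at 16.7, 15.7 and 9.25 CPM. Cre was seen in 26, 18 and 11 OPC nuclei. *Syn1*, whose promoter drives the transgene, was counted at 68.2, 61.1, 54.8 and 74.6 CPM in OPC nuclei. Because a library labelled as wild type held Cre UMIs, genotypes are named below as the labels give them. The replicate number also coincided with sex: among OPC nuclei, replicate 1 of each genotype held 128 and 90 *Ddx3y* UMIs and no *Xist* UMI, and replicate 2 of each held 3569 and 2666 *Xist* UMIs with at most 1 *Ddx3y* UMI.

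The share of OPC nuclei overlapped between the genotypes, whereas the share of their descendants was smaller in both Sel1L SynCre libraries. OPCs made up 2.82% (95% Wilson interval 2.55 to 3.13) and 3.97% (3.57 to 4.41) of kept nuclei in Sel1L fl/fl and 3.20% (2.84 to 3.61) and 3.21% (2.83 to 3.64) in Sel1L SynCre. The genotypes overlapped, with a difference of -0.193 percentage points (exact permutation test over 4 libraries, two-sided p = 1). This difference was 0.381 points without Sel1L fl/fl replicate 2 and -0.767 points without Sel1L fl/fl replicate 1. Immature oligodendrocytes made up 2.54% and 1.48% of kept nuclei in Sel1L fl/fl and 0.62% and 0.249% in Sel1L SynCre. Mature oligodendrocytes made up, in the same order, 14.3%, 13.7%, 4.31% and 4.67%. Of all nuclei in this lineage, OPCs therefore formed 14.4% and 20.7% in Sel1L fl/fl and 39.3% and 39.5% in Sel1L SynCre. The means were 17.5% ± 4.47 (SD, n = 2) and 39.4% ± 0.0895 (n = 2), and the libraries did not overlap. With 2 libraries per genotype the exact permutation test cannot give a two-sided p under 0.333, which was the value obtained for this difference of 21.8 points. Intervals cover counting error only, and in sorted nuclei from frozen tissue fewer cells of a type and fewer nuclei recovered from it cannot be told apart.

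**Figure D1:**
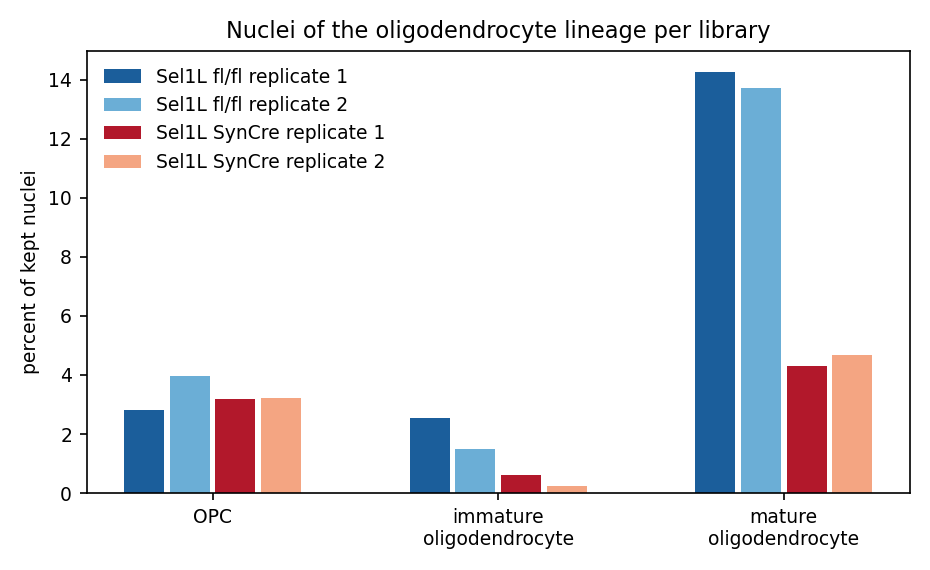
OPC, immature oligodendrocyte and mature oligodendrocyte nuclei as percent of kept nuclei (vertical axis), with 1 bar for each of the 4 libraries. The OPC bars lie between 2.82% and 3.97%, while mature oligodendrocytes lie at 14.3% and 13.7% in Sel1L fl/fl and at 4.31% and 4.67% in Sel1L SynCre.

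Gene expression in OPC nuclei was compared on UMIs summed per library. Of 11480 genes tested, 440 (3.83%) passed an adjusted p of 0.05, with 222 (1.93%) higher and 218 (1.9%) lower in Sel1L SynCre. An unadjusted p under 0.05 was reached by 1595 genes, and the median log2 fold change over all genes tested was 0.000928. The 2 libraries of 1 genotype lay entirely above those of the other for 42.7% of genes tested. Of the 12 genes named by the size of their rise, 5 were listed ATF4 targets, and of the 12 named by the size of their fall, 4 were listed cell division genes. The p-values are those of edgeR's quasi-likelihood test unless another tool is named. They rest on the spread between these 4 libraries, with each gene's spread drawn toward that of other genes. A gene whose 2 libraries of a genotype lie far apart can therefore still have a small p-value and SE. A gene absent from one genotype passed the filter on low counts through the other alone, so that counts over tested members are descriptive. The gene lists were chosen with earlier results of these data known, so that their shares of called genes are not independent evidence.

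Many ER quality control genes were higher in OPC nuclei of the Sel1L SynCre libraries. Of 20 such genes taken from those the study examined in this model, all were tested, 12 were higher (60.0%, against 1.93% of all genes tested), none was lower, and the median log2 fold change was 1.18, against 0.000928 over all genes. DESeq2 called 11 of the 20 higher, and with no filter on low counts edgeR called 1 of 20. The list was chosen by the study on this model, so that its direction is not independent evidence. The summed level of the list was 901 and 868 CPM in Sel1L fl/fl and 2318 and 1625 CPM in Sel1L SynCre. *Hspa5* (BiP, the main ER chaperone, chr2:34771970-34777547, plus strand) held 54 and 55 UMIs in Sel1L fl/fl and 218 and 140 in Sel1L SynCre, or 34.4 ± 2.57 and 164 ± 42.2 CPM. Both SynCre libraries were far above both controls, with a log2 fold change of 2.26 ± 0.20 (adjusted p = 7.7e-09). *Hsp90b1* (GRP94, its partner chaperone) held 148, 103, 363 and 217 UMIs, a log2 fold change of 1.76 ± 0.19, and *Hyou1* (GRP170, a nucleotide exchange factor for BiP) held 12, 18, 47 and 38 UMIs, 2.04 ± 0.32. Neither gene overlapped between genotypes. *Derl3*, an ERAD membrane component, held 3 and 1 UMIs against 23 and 11 (log2 fold change 3.54 ± 0.63). Its adjusted p was 0.00049, and 0.090 without Sel1L SynCre replicate 1. *Herpud1*, which organizes the HRD1 complex, held 50, 51, 135 and 84 UMIs (1.66 ± 0.22). *Xbp1*, the transcription factor activated by IRE1α, held 32, 34, 92 and 61 UMIs (1.75 ± 0.24). *Ddit3* (CHOP, a transcription factor of prolonged ER stress) held 8, 11, 68 and 26 UMIs (2.83 ± 0.40). *Calr* (calreticulin, a lectin chaperone) held 57, 55, 95 and 71 UMIs, a log2 fold change of 1.11 ± 0.21. The call of *Canx* (calnexin), with 121, 140, 203 and 134 UMIs, was lost without Sel1L SynCre replicate 1 (adjusted p = 0.13), and 10 of the 20 genes were then higher. The sensor *Eif2ak3* (PERK) held 91, 59, 78 and 70 UMIs, with a log2 fold change of 0.54 ± 0.21 and an adjusted p of 0.21.

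Among 32 tested genes of a further list of ER folding and UPR genes, 11 were higher (against 1.93% of all genes tested), none was lower, and the median log2 fold change was 0.70. DESeq2 called 5 of the 32 higher, and with no filter on low counts edgeR called 0 of 35. The summed level was 897, 993, 1853 and 1311 CPM, without overlap. *Pdia6* (a disulfide isomerase) held 61, 69, 174 and 84 UMIs, a log2 fold change of 1.52 ± 0.23. *Creb3l1* (OASIS, a membrane-bound transcription factor of the ATF6 family) held 8, 2, 25 and 25 UMIs, 2.84 ± 0.47, and *Creb3l2*, its relative, held 74, 64, 107 and 96 UMIs, 1.11 ± 0.19. Sel1L SynCre replicate 1 carried much of this list: without it, 4 of 32 genes were higher. *Manf*, a secreted ER stress protein, with 95, 118, 229 and 118 UMIs, had an adjusted p of 0.053 without that library and 0.30 in DESeq2.

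The promoters of these genes are shown because ER chaperone genes share the ER stress response element, read by ATF6 with the CCAAT-binding factor NF-Y. Promoters were matched by symbol to RefSeq (GRCm38.p6), which gave windows for 27025 genes from 250 bases before to 50 bases after a gene's start. The letters CCAAT and CCACG with 9 free bases between them, searched on both strands, occurred in 37 windows (0.137%). They occurred in 7 of the 17 quality control genes with a window, of which 6 were called higher (*Calr*, *Canx*, *Derl3*, *Dnajc3*, *Hsp90b1* and *Hspa5*), and in 2 of 25 windows of the further ER list. The matches of *Hspa5*, *Hsp90b1* and *Derl3* began 65 bases, 212 and 107 bases, and 156 bases before the start. This start is that of RefSeq, and for *Hspa5* it lies inside the gene interval given above, which is from GENCODE. A match of letters is a description and not a binding site. The 250 bases before the start are given 5′ to 3′ on the gene's strand, with the matches in capitals.
Hspa5, chr2:34771840-34772089, plus strand: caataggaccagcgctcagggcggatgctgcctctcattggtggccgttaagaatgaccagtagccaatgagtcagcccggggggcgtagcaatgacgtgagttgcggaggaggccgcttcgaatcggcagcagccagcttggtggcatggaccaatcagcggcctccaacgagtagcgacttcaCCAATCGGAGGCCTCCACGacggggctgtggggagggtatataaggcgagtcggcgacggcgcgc
Hsp90b1, chr10:86705445-86705694, minus strand: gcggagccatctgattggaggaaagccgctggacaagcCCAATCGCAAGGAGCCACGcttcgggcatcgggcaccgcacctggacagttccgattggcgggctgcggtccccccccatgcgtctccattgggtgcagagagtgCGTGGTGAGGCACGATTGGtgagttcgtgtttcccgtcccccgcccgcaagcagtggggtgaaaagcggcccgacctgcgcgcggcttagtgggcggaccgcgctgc
Derl3, chr10:75893148-75893397, plus strand: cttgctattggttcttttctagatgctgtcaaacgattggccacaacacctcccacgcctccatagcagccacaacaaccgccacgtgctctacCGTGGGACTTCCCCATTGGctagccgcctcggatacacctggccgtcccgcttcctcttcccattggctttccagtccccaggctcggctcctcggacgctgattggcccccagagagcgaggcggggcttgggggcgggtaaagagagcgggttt

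The list with the largest share of genes called was that of ATF4 targets. Like the other lists, it was chosen with earlier results of these data known, so that its share is not independent evidence. Of 48 listed genes, 47 were measured and 38 were tested, and 35 of the 38 were higher (92.1%, against 1.93% of all genes), none was lower, and the median log2 fold change was 1.60. The count lay between 29 and 37 without any 1 library, with likely doublets left out, without nuclei that held a UMI of *Slc17a7*, *Gad1* or *Gad2*, and in DESeq2, and was 7 of 45 when no filter on low counts was applied. The list shares *Ddit3* with the quality control list and 7 genes with the one-carbon list below. It also shares *Ddit4* with the glucocorticoid list and *Atf3* with the immediate early list. Summed levels were 1123 and 1207 CPM in Sel1L fl/fl and 3999 and 2849 CPM in Sel1L SynCre, against a mean of 1085 CPM in neurons. The transcript of *Atf4* itself held 42, 50, 31 and 33 UMIs, or 29.1 ± 5.36 and 29.6 ± 2.87 CPM, with a log2 fold change of 0.03 ± 0.27 (adjusted p = 0.98). ATF4 is controlled mainly by translation, which these data do not measure.

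Transcription regulators among the targets are given first. *Nupr1*, a stress-induced chromatin protein (chr7:126623249-126630861, minus strand), held no UMI in either Sel1L fl/fl library and 126 and 84 in the Sel1L SynCre libraries. Set against the limit of 3 counts per genotype, this was at least 103-fold higher. Such bounds, and the counting intervals below, pool the UMIs of each genotype's libraries. They leave out the spread between nuclei and between libraries. *Atf5*, an ATF4 relative, held 9 and 6 UMIs against 109 and 87, with a log2 fold change of 4.23 ± 0.29 (adjusted p = 6.7e-11). Its interval overlaps *Nup62* and *Il4i1* on the opposite strand. Several amino acid transporters were higher. *Slc7a5* (LAT1, the light chain for large neutral amino acids) held 17, 18, 162 and 97 UMIs, or 11.04 ± 1.13 against 119 ± 36.1 CPM, a log2 fold change of 3.42 ± 0.26. Its heavy chain *Slc3a2* held 71, 60, 197 and 103 UMIs (1.74 ± 0.22). *Slc7a1* (a cationic amino acid carrier) held 23, 28, 161 and 99 UMIs (2.88 ± 0.24). *Slc7a11* (xCT, the cystine-glutamate exchanger) held 7, 0, 145 and 41 UMIs, a log2 fold change of 5.21 ± 0.53. Its SynCre libraries differed by more than 3 times in UMIs, and DESeq2 gave an adjusted p of 0.30.

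Several biosynthetic enzymes and tRNA synthetases rose as well. *Asns* (asparagine synthetase, chr6:7675169-7693254, minus strand) held 17, 16, 121 and 69 UMIs, or 10.4 ± 0.197 against 86.9 ± 29.3 CPM, a log2 fold change of 3.06 ± 0.27 (adjusted p = 7.7e-09). *Sesn2*, a leucine-sensing inhibitor of mTORC1, held 6, 3, 38 and 22 UMIs (3.24 ± 0.46), and *Eif4ebp1*, a repressor of cap-dependent translation, held 2, 1, 33 and 16. The ratio for *Eif4ebp1* was 24.1 (counting interval 7.78 to 121). *Lars* (leucyl-tRNA synthetase), outside the list, held 157, 127, 396 and 292 UMIs (1.83 ± 0.17), and *Yars* (tyrosyl-tRNA synthetase) held 81, 71, 203 and 138 (1.71 ± 0.19). *Gdf15*, a secreted stress hormone, was counted in neither Sel1L fl/fl library and held 21 and 8 UMIs in Sel1L SynCre, at least 14.3-fold higher. *Trib3*, a pseudokinase induced by CHOP, held 0, 0, 30 and 6 UMIs and was too low to be tested.

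**Figure D2:**
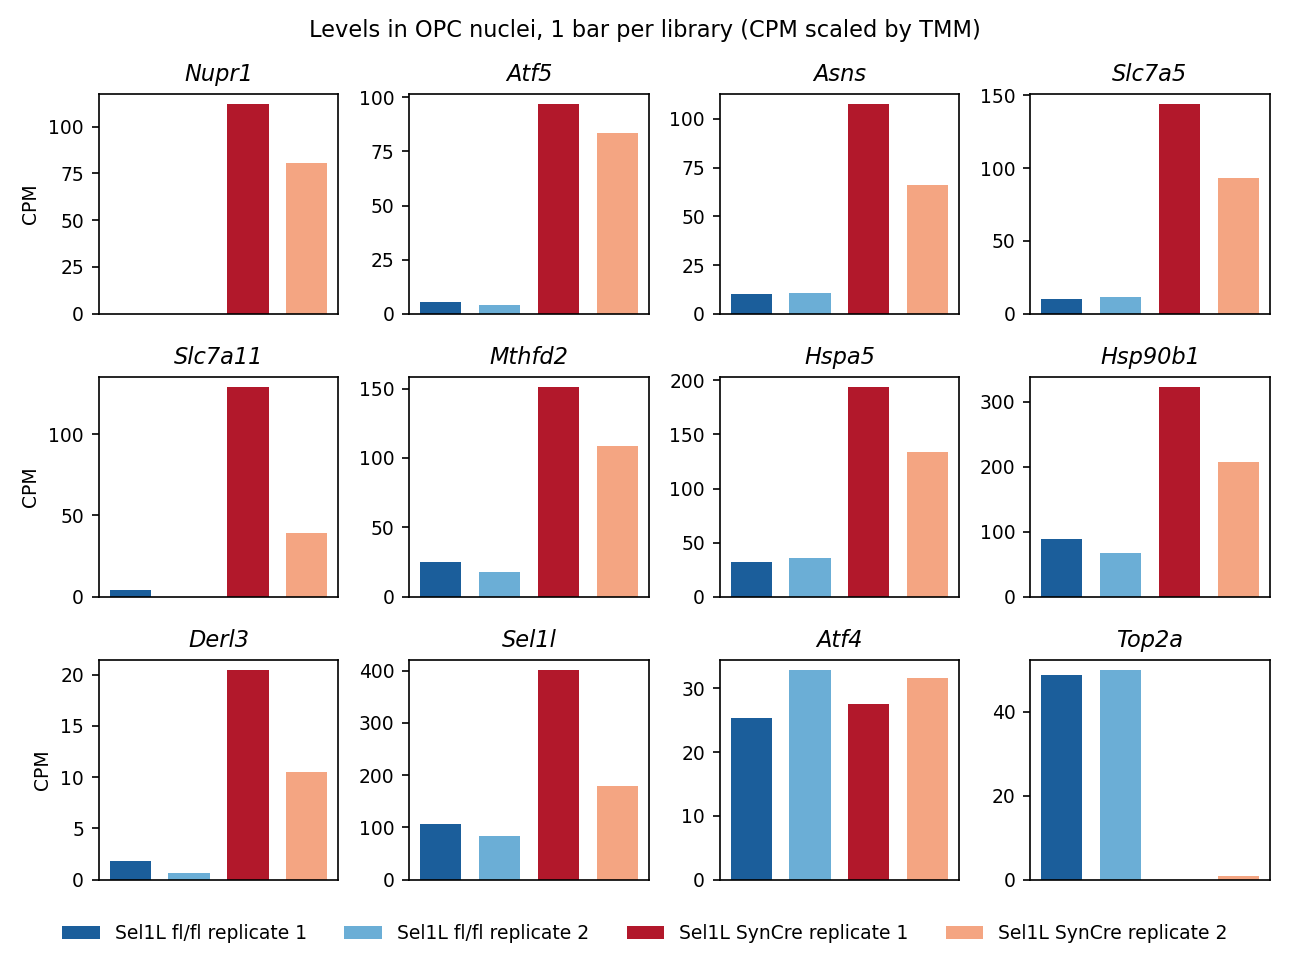
Level of 12 genes in OPC nuclei (vertical axes, CPM scaled by TMM normalization, each from 0), with 1 bar per library. For all genes but *Atf4* and *Top2a* both Sel1L SynCre bars stand above both Sel1L fl/fl bars, *Atf4* overlaps between genotypes, and *Top2a* is at 1 UMI or fewer in each Sel1L SynCre library.

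The consensus of the C/EBP-ATF response element, through which ATF4 acts, was read in the same promoter windows. The letters TGATGNAA on either strand occurred in 1219 of 27025 windows (4.51%), in 17 of 40 windows of the ATF4 list (42.5%) and in 11 of the 29 whose genes were higher. Matches began 110 bases before the RefSeq start of *Nupr1*, 23 bases before that of *Asns*, and 66 and 47 bases before that of *Slc7a11*. The RefSeq starts of *Nupr1* and *Asns* lie inside the GENCODE intervals given above for these genes. No window held both these letters and the ER stress element. The 250 bases upstream of the 3 genes follow, on each gene's strand with matches in capitals.
Nupr1, chr7:126625471-126625720, minus strand: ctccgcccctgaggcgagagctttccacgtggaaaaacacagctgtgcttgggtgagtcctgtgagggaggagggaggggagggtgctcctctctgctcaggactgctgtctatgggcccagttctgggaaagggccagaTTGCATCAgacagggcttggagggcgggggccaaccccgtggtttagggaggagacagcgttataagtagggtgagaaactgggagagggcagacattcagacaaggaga
Asns, chr6:7693210-7693459, minus strand: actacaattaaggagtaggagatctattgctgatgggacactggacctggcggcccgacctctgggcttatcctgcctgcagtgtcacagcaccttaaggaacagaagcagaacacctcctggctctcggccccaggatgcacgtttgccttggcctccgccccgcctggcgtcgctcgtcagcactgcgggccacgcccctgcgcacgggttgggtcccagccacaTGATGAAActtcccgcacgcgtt
Slc7a11, chr3:50443614-50443863, minus strand: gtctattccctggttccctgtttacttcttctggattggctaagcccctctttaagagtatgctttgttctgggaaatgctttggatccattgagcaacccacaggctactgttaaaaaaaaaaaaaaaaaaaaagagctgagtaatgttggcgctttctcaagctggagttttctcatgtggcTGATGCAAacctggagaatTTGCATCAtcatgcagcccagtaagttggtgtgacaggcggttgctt

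Raised counts of the ATF4 list were found in most OPC nuclei of the Sel1L SynCre libraries. Each nucleus was thinned to 2000 UMIs, which left out 4, 23, 10 and 7 shallower nuclei. The median nucleus then held 2 UMIs of the ATF4 list in each Sel1L fl/fl library (quartiles 1 and 3 in both), 8 in Sel1L SynCre replicate 1 (6 and 10) and 6 in Sel1L SynCre replicate 2 (4 and 8). At least 5 UMIs were found in 10.7% and 12.5% of OPC nuclei in Sel1L fl/fl and in 87.9% and 66.2% in Sel1L SynCre. In neurons of the same libraries, thinned alike, these shares were 5.31%, 6.91%, 20.1% and 15.6%, and in mature oligodendrocytes 17.1%, 22.1%, 41.6% and 45.8%, where 152, 256, 67 and 61 shallower nuclei were left out. *Nupr1* was seen in 0 of 345 and 0 of 312 thinned OPC nuclei and in 19.8% and 16.9% of those of Sel1L SynCre, in 0.124%, 0.333%, 9.61% and 8.66% of mature oligodendrocytes, and in at most 1.04% of neurons in any library. *Hspa5* was seen in 6.38%, 8.65%, 32.7% and 24.4% of OPC nuclei. Sel1L SynCre replicate 1 was above replicate 2 in the list and in both genes, with no overlap between genotypes.

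**Figure D3:**
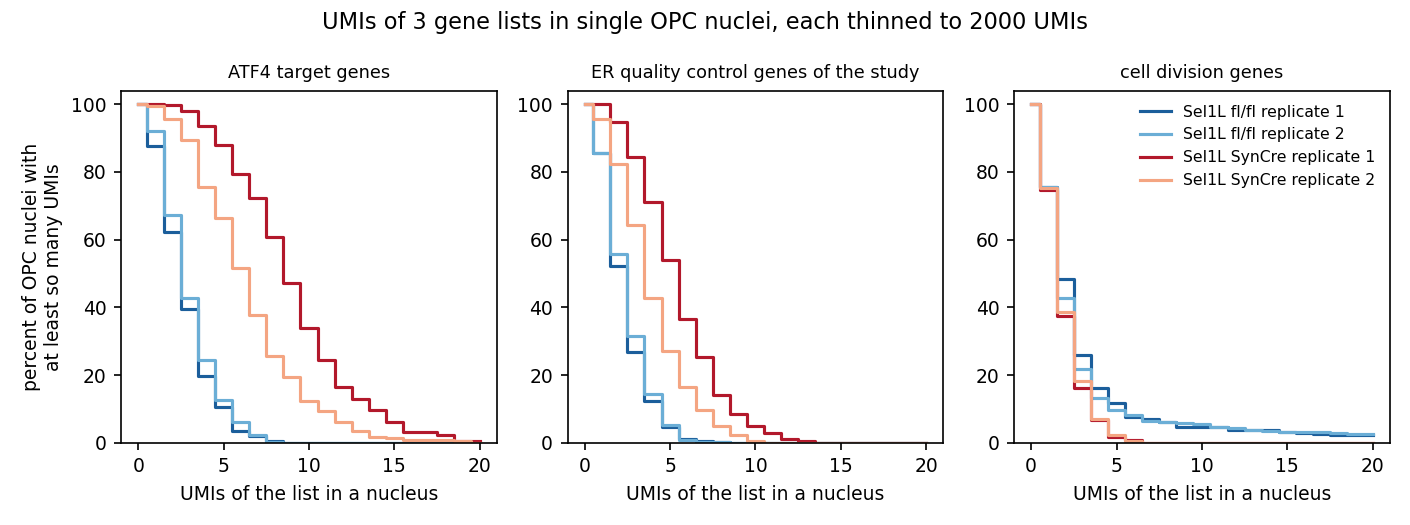
Percent of OPC nuclei (vertical axis) that hold at least a given number of UMIs (horizontal axis) of the ATF4 list, the ER quality control list and the cell division list, with 1 line per library and every nucleus thinned to 2000 UMIs. The 2 Sel1L SynCre lines lie to the right for the first 2 lists, and the long tail of the division list, up to 43 and 47 UMIs in the Sel1L fl/fl libraries and drawn to 20, ends at 6 UMIs in both Sel1L SynCre libraries.

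Some genes of the pathway that supplies 1-carbon units were higher. Of 27 tested genes, 9 were higher (against 1.93% of all genes tested), none was lower, and the median log2 fold change was 0.35. DESeq2 called 7 of the 27, and with no filter on low counts edgeR called 1 of 35. *Mthfd2* (mitochondrial methylenetetrahydrofolate dehydrogenase) held 42, 27, 170 and 113 UMIs, a log2 fold change of 2.58 ± 0.22, and *Phgdh* (the first enzyme of serine synthesis) held 17, 21, 67 and 35, 1.96 ± 0.31. Genes outside the ATF4 list also rose, namely *Mat2a* (methionine adenosyltransferase) with 241, 264, 427 and 322 UMIs and 1.11 ± 0.16, and *Mthfd1l* with 116, 117, 182 and 166 UMIs and 1.13 ± 0.17.

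Glucocorticoid-responsive genes formed a further group, with 8 of 18 tested higher (against 1.93% of all genes tested), none lower and a median log2 fold change of 0.92. DESeq2 called 5 of the 18 higher, and with no filter on low counts edgeR called 0 of 25. This list shares *Ddit4* with the ATF4 list and *Cdkn1a*, which was called higher, with the cell division list. It was chosen with earlier results of these data known, so that its share is not independent evidence. The summed level was 788, 875, 1241 and 1580 CPM, and here Sel1L SynCre replicate 2 stood highest. *Mertk*, a phagocytic receptor, held 129, 172, 265 and 339 UMIs (log2 fold change 1.56 ± 0.18), *Fkbp5*, a cochaperone of the glucocorticoid receptor, held 91, 106, 156 and 167 (1.26 ± 0.18), and *Zbtb16*, a transcription repressor, held 94, 125, 133 and 170 (1.02 ± 0.20). *Hif3a*, a hypoxia-inducible factor subunit, was not on the list and held 5, 10, 60 and 181 UMIs, a log2 fold change of 4.55 ± 0.42. In contrast to the ATF4 targets, its level in replicate 2 was over 3 times that in replicate 1 of Sel1L SynCre. *Hif3a* was most abundant in astrocytes, at 130, 243, 242 and 364 CPM, against 2.97, 6.65, 53.0 and 175 CPM in OPCs, while the astrocyte marker *Gja1* (connexin 43) rose in OPC nuclei on few counts, 3, 3, 10 and 10 UMIs. The call of *Gja1* was lost without any 1 library (adjusted p between 0.12 and 0.25) and in DESeq2 (0.58). *Sgk1*, the most abundant gene of the glucocorticoid list, held 310, 248, 178 and 234 UMIs and was at 175 ± 16.8 and 191 ± 46.6 CPM (log2 fold change 0.13 ± 0.17, adjusted p = 0.84). The part of the astrocyte marker sum in these results was not tested.

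Many cell division genes were lower in the Sel1L SynCre libraries. Of 71 listed genes 48 were tested, 22 were lower (45.8%, against 1.9% of all genes tested), 2 were higher, and the median log2 fold change was -1.22. The summed level was 1328 and 1304 CPM in Sel1L fl/fl and 693 and 677 CPM in Sel1L SynCre. This list, too, was chosen with earlier results of these data known, so that its share is not independent evidence. *Top2a* (topoisomerase IIα, which untangles chromosomes and lies at chr11:98992943-99024189, minus strand) held 81 and 76 UMIs in Sel1L fl/fl and 0 and 1 in Sel1L SynCre. The ratio was 106, with a counting interval from 18.8 to 4229. The Sel1L fl/fl UMIs came from only 18 and 16 nuclei, so that they were not independent and the interval is too narrow. *Mki67* (Ki-67, a marker of cycling cells) held 23, 30, 3 and 0 UMIs, and *Cenpf* (a kinetochore protein) held 28, 39, 3 and 0. *Mcm6*, a subunit of the replicative helicase, held 30, 24, 2 and 4 UMIs, a log2 fold change of -2.57 ± 0.52 with an adjusted p of 0.0022, and of 0.051 without Sel1L SynCre replicate 1. Without Sel1L SynCre replicate 1, 15 of 53 tested list members were lower. Several of the genes named by the size of their fall stood outside the list. *Esco2* (a cohesin acetyltransferase) held 27, 27, 0 and 0 UMIs and was at least 12.2-fold lower. *Shcbp1*, a protein of cytokinesis, held 23, 17, 0 and 0 UMIs, at least 9.04-fold lower. *Kif4*, a chromosome-bound kinesin, held 14, 18, 0 and 0 (at least 7.23-fold lower), and *Fancd2* of the Fanconi repair pathway held 13, 12, 0 and 0 (at least 5.65-fold lower). The other 7 genes that the naming rule picked among those that fell were *Kif11*, *Neil3*, *Rad54b*, *Dtl*, *Brip1*, *Cenph* and *Rad51ap1*, each with 2 UMIs or fewer in either Sel1L SynCre library. The calls of *Fancd2* and *Rad51ap1* were lost without Sel1L SynCre replicate 1 (adjusted p = 0.063) and replicate 2 (0.076), respectively. The 2 genes that rose were *Cdkn1a* (p21, an inhibitor of cyclin-dependent kinases), with 2, 1, 14 and 13 UMIs and a ratio of 13.3 (counting interval 4.09 to 68.4), and *Ccnd2* (cyclin D2), with 33, 28, 78 and 50 UMIs. Of the 16 list members with at least 10 UMIs in every library, 4 were lower and the median log2 fold change was -0.52. With no filter, 3 of 71 were lower, and DESeq2 called 5 of 48. Among the genes named here, DESeq2 did not call *Mki67* (adjusted p = 0.051), *Mcm6* (0.115), *Cdkn1a* (0.061), *Fancd2*, *Kif11*, *Neil3*, *Rad54b*, *Dtl*, *Brip1* or *Rad51ap1*, the last 7 with adjusted p from 0.054 to 0.34. Leaving out likely doublets gave 24 lower of 45 tested, and leaving out nuclei with a UMI of *Slc17a7*, *Gad1* or *Gad2* gave 22 of 37.

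Counted by nucleus, division was concentrated in few OPCs. After thinning to 2000 UMIs, *Mki67* or *Top2a* was seen in 15 of 345 and 19 of 312 OPC nuclei of Sel1L fl/fl (5.22% ± 1.23, SD, n = 2) and in 2 of 248 and 1 of 225 of Sel1L SynCre (0.625% ± 0.256, n = 2). The libraries did not overlap, and the difference of -4.59 percentage points had the smallest two-sided p the exact permutation test allows, 0.333. Without thinning the shares were 6.88% ± 0.406 and 0.797% ± 0.517 (SD, n = 2 libraries each). In nuclei of the neuron class the thinned share was between 0.72% and 1.02%, against 0.806% and 0.444% in OPC nuclei of Sel1L SynCre. Single nuclei of the neuron class held up to 25, 17, 67 and 45 UMIs of the division list. The class is therefore not a clean measure of background. At least 5 UMIs of the whole list were found in 11.9% and 9.62% of Sel1L fl/fl OPC nuclei and in 1.61% and 2.22% of those of Sel1L SynCre. The letters TTTGAA, the core of a cell cycle repressor element, were in 21 of 58 promoter windows of the list (36.2%) and in 20.2% of all windows.

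Identity genes are given next, and the counts of called genes in this paragraph stand against 1.93% of all genes tested higher and 1.9% lower. For lists this short, 0 or 1 call in a direction cannot be told from those shares and says little about identity. With all 4 libraries, none of the 10 OPC markers left out of the rule was called in either direction by edgeR or DESeq2, with 2 at an unadjusted p under 0.05 and a median log2 fold change of -0.07. Without Sel1L fl/fl replicate 2, edgeR called 2 of the 10 lower. *Sox10*, a transcription factor of the whole lineage, held 561, 650, 482 and 498 UMIs, or 383 ± 63.2 and 453 ± 34.4 CPM (log2 fold change 0.24 ± 0.15, adjusted p = 0.54). Of 16 tested genes of committed precursors, *Arhgef3* (a guanine nucleotide exchange factor) was higher with 155, 113, 230 and 158 UMIs, and *Nkx2-2*, a regulator of differentiation, was lower with 127, 119, 47 and 53 UMIs (1 gene, or 6.25%, in each direction). The adjusted p of *Nkx2-2* was 0.031, and 0.082, 0.085 and 0.29 without Sel1L fl/fl replicate 1, Sel1L fl/fl replicate 2 and Sel1L SynCre replicate 1. It was 0.48 in DESeq2, 0.21 under a stricter rule for OPC nuclei (at least 2 *Pdgfra* UMIs and 3 of the 6 markers) and 0.056 with libraries thinned to the smallest total. *Gpr17*, a receptor that marks cells about to differentiate, held 170, 195, 96 and 96 UMIs (log2 fold change -0.38 ± 0.18, adjusted p = 0.33). Its UMIs were seen in 16.5%, 22.8%, 16.1% and 16.0% of thinned OPC nuclei, a difference of -3.57 points that was -0.457 points without Sel1L fl/fl replicate 2, and in at most 0.298% of neurons. The genotypes overlapped without thinning. Among 22 precursor-state regulators and 25 Notch and Wnt genes, *Hes1* (a Notch target on both lists, 4.55% and 4% of their tested genes) was the single call, higher with 23, 48, 71 and 37 UMIs, and it was lost without Sel1L fl/fl replicate 1 (adjusted p = 0.35) or Sel1L SynCre replicate 1 (0.47). Of 23 growth factor and hormone receptors, *Fgfr2* was the single call (4.35%), higher with 508, 679, 710 and 587 UMIs, with adjusted p of 0.15 without either of those libraries. Of 32 tested matrix genes, *Bcan* (the proteoglycan brevican, 430, 430, 480 and 371 UMIs) was higher and *Chsy3* (a chondroitin synthase, 315, 297, 129 and 126 UMIs) was lower. In a list of this length 1 gene is 3.13%. DESeq2 called neither these 2 genes nor *Hes1*. Both calls were lost without Sel1L SynCre replicate 1, with adjusted p of 0.49 and 0.091, and that of *Bcan* also without Sel1L fl/fl replicate 1 (0.12).

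Several other programs gave no call. In edgeR none of 34 tested genes of cholesterol and fatty acid synthesis (median log2 fold change -0.12), 17 cytosolic heat shock genes (-0.09), 13 immediate early genes (0.03), 11 genes of glial reactivity, interferon and antigen presentation (0.07) or 3 microglia markers passed the threshold, nor did any in DESeq2. An unadjusted p under 0.05 was reached in edgeR by 2, 1, 1, 0 and 1 genes of these lists. Of all genes tested, 1.93% were called higher and 1.9% lower. For lists this short, 0 calls is near that share and says little about these programs.

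**Figure D4:**
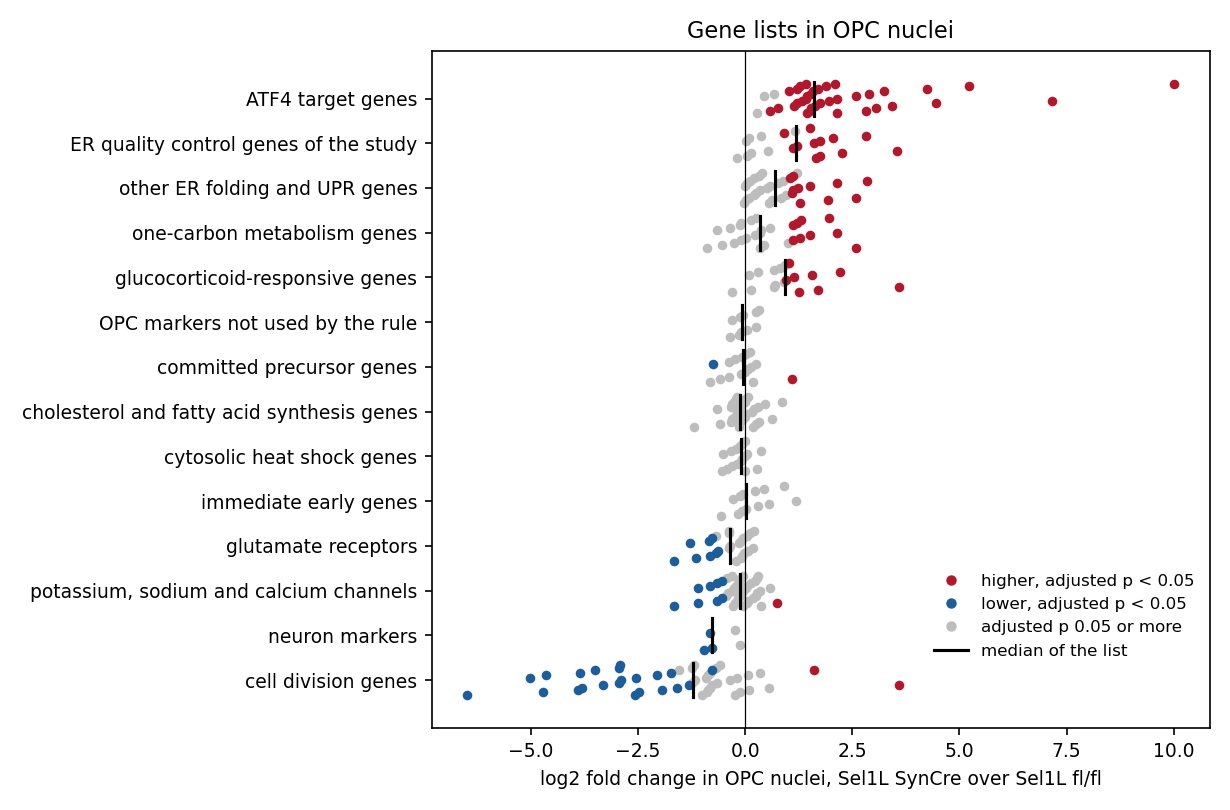
Log2 fold change in OPC nuclei, Sel1L SynCre over Sel1L fl/fl (horizontal axis), for each tested gene of 14 lists (rows), with a black line at each list's median and coloured points for genes with an adjusted p under 0.05. ATF4 targets lie to the right with 35 of 38 called, cell division genes to the left with 22 of 48 called lower, and OPC markers lie around 0 with no call in the fit of all 4 libraries.

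A minority of receptor, channel and adhesion genes was lower in the Sel1L SynCre libraries, and fewer of them were called once likely doublets, or nuclei with a UMI of the 3 neuronal genes of the rule, were left out. Of 25 tested glutamate receptor genes 8 were lower, of 42 potassium, sodium and calcium channel genes 8 were lower and 1 was higher (*Kcnip1*), and of 57 adhesion and synapse organizing genes 9 were lower and 1 was higher (*Nrxn2*), against 1.9% of all genes tested lower and 1.93% higher. The list medians were -0.35, -0.13 and -0.16. DESeq2 called 3, 3 and 5 genes of these lists lower, and edgeR with no filter on low counts called 1, 1 and 0. The glutamate receptor count was 5 without Sel1L fl/fl replicate 2, the channel count was 3 without Sel1L SynCre replicate 1 and 4 without Sel1L SynCre replicate 2, and the adhesion count was 6 without Sel1L SynCre replicate 1 and 4 without Sel1L SynCre replicate 2. *Kcnip1*, with 425, 366, 386 and 508 UMIs, was not called without Sel1L SynCre replicate 2 (adjusted p = 0.27), nor was *Nrxn2*, with 628, 713, 684 and 671 UMIs, without Sel1L fl/fl replicate 1 (0.15), Sel1L SynCre replicate 1 (0.12) or Sel1L SynCre replicate 2 (0.20). The part of neuronal RNA in these results was not tested, and its markers moved alongside: *Rbfox3* (105, 124, 36 and 45 UMIs), *Syt1* (793, 963, 349 and 333) and *Camk2a* (171, 217, 76 and 80) were called lower. Doublet scoring left out 24, 22, 9 and 6 OPC nuclei. Without them, 3 glutamate receptor, 1 channel and 2 adhesion genes were lower, and no neuron marker was called, with log2 fold changes of 0.06 for *Rbfox3*, -0.02 for *Syt1* and 0.17 for *Camk2a*. With the 784 OPC nuclei without a UMI of *Slc17a7*, *Gad1* or *Gad2*, which can still hold other neuron markers, 5, 1 and 3 genes of the same lists were lower. Ranked by variance among OPC nuclei beyond that of counting, the first 4 genes were *Kcnip4*, *Ptprd*, *Snhg11* and *Meg3*. *Kcnip4*, a potassium channel-interacting protein, held 3146, 3217, 1074 and 953 UMIs, a log2 fold change of -1.10 ± 0.15 that was -0.17 with likely doublets left out. *Grin2a*, an NMDA receptor subunit with 304, 450, 102 and 185 UMIs, went from -0.84 to 0.41 in the same setting. Its call, like those of *Rbfox3* and *Camk2a*, was also lost without Sel1L fl/fl replicate 2 (adjusted p = 0.22, 0.10 and 0.24) or Sel1L SynCre replicate 1 (0.45, 0.15 and 0.13), and DESeq2 called none of the 3. The calls of *Grm7*, *Kcnb2* and *Cpne4* were kept in both settings and without each library. *Grm7* (a presynaptic glutamate receptor) held 1345, 1208, 408 and 311 UMIs, or 802 ± 11.3 against 330 ± 45.8 CPM, a log2 fold change of -1.28 ± 0.15 (adjusted p = 1.3e-06). *Kcnb2* (a voltage-gated potassium channel) held 675, 714, 173 and 182 UMIs (-1.42 ± 0.16), and *Cpne4* (a copine, a calcium-dependent membrane-binding protein) held 107, 101, 8 and 12 UMIs (-2.81 ± 0.29). *Gria4*, an AMPA receptor subunit, held 1466, 1335, 551 and 560 UMIs (-0.78 ± 0.15) and had an adjusted p of 0.078 without Sel1L SynCre replicate 1.

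Among the 12 genes that rose furthest, several belonged to no list. *Cyb5r2* (a cytochrome b5 reductase) held 3, 3, 76 and 49 UMIs (log2 fold change 4.86 ± 0.40), and its interval overlaps *Ppfibp2* on the opposite strand. *Moxd1*, a monooxygenase-like protein, held 7, 4, 88 and 70 UMIs (4.36 ± 0.33), and *Mei4*, known for meiotic recombination, held 5, 8, 72 and 55 (3.81 ± 0.34). *Trim66* held 6, 3, 79 and 36 UMIs (4.18 ± 0.42). *Cftr*, a chloride channel, held 4, 3, 12 and 85 UMIs, and its call (4.31 ± 0.65) was lost without Sel1L SynCre replicate 2 (adjusted p = 0.12) and in DESeq2 (0.089). *Gucy2f*, a guanylate cyclase at most 5.76 CPM in the other classes, held 53, 54, 157 and 128 UMIs in OPC nuclei, a log2 fold change of 1.96 ± 0.19.

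Whether the genotype effect differed between OPCs and other classes of the same libraries was tested as an interaction. Neurons, at which the deletion was aimed, served as 1 comparison. The paper reports SEL1L loss in only a part of cortical neurons and largely preserved SEL1L in CA1. The neuron class pools such neurons, so that its effects are averages over cells with and without the loss. After thinning, its median nucleus held 2 UMIs of the ATF4 list in every library, while the 95th percentile was 5, 5, 9 and 7. Of 11456 genes tested in both, 274 (2.39%) differed, with the effect more positive in OPCs for 123 (1.07%) and more negative for 151 (1.32%). For ATF4 targets the effect was larger in OPCs for 25 of 38 genes and smaller for none, with a median log2 fold change of 1.60 in OPCs and 0.50 in neurons. *Asns* rose by 3.06 on the log2 scale in OPCs and changed by 0.44 in neurons, where it stood at 17.3, 20.3, 28.3 and 24.3 CPM, a difference of 2.57 ± 0.27 (adjusted p = 4.4e-05). *Slc7a5* differed by 2.52 ± 0.25 (3.42 against 0.85). For ER quality control genes 4 of 20 differed, *Sel1l*, *Hspa5*, *Hsp90b1* and *Xbp1*, all more positive in OPCs. Of 46 cell division genes, 19 had a more negative effect in OPCs, with median log2 fold changes of -1.22 in OPCs and 0.11 in neurons. With so little change in neurons, this count restates the fall within OPCs and is not separate evidence. *Top2a* stood at 0.645, 0.623, 1.01 and 0.569 CPM in neurons.

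Mature oligodendrocytes, the descendants of OPCs, were the other class compared. Of 10872 genes, 152 (1.4%) differed, 53 (0.487%) more positive and 99 (0.911%) more negative in OPCs. No ER quality control gene of 20 was called in edgeR and 6 had an unadjusted p under 0.05, with medians of 1.18 in OPCs and 0.79 in mature oligodendrocytes and a median difference of 0.40. A missing call does not show that the effects were equal. For ATF4 targets, 11 of 33 had a larger effect in OPCs, including *Atf5*, *Slc7a5*, *Mthfd2* and *Phgdh*, and none a smaller one. No cell division gene of 29 was called in edgeR and 9 had an unadjusted p under 0.05, with medians of -0.81 in OPCs and 0.08 in mature oligodendrocytes and a median difference of -0.83. *Nupr1* was at 0.819, 0.729, 41.4 and 56.9 CPM in mature oligodendrocytes, 0, 0, 111 and 81.4 CPM in OPCs and 1.10, 0.864, 5.43 and 3.22 CPM in neurons. *Slc7a11* differed between OPCs and mature oligodendrocytes, with log2 fold changes of 5.21 and 0.07 (difference 5.18 ± 0.65, adjusted p = 0.0009). Its rise was not particular to OPCs: it stood at 3.46, 2.17, 23.1 and 12.7 CPM in neurons and at 3.39, 0.602, 16.0 and 10.8 CPM in microglia. It was most abundant in astrocytes, at 637, 360, 567 and 511 CPM, and the part of astrocyte RNA in the OPC counts was not tested. *Sgk1* differed in the other direction, with 0.13 in OPCs and 2.46 in mature oligodendrocytes, where it rose (adjusted p = 0.017) from 49.1 and 127 to 394 and 600 CPM. *Moxd1* and *Hif3a* differed against neurons by 4.15 ± 0.35 and 4.12 ± 0.39. The higher *Hif3a* counts were not particular to OPCs. After thinning, *Hif3a* was seen in 0.37%, 3.2%, 8.9% and 29.6% of mature oligodendrocyte nuclei and in 0%, 1.9%, 10.5% and 29.8% of OPC nuclei. *Moxd1* was seen in 0.06%, 0.22%, 0.36% and 0.36% of thinned mature oligodendrocyte nuclei and in 0.58%, 0%, 16.1% and 12.4% of OPC nuclei.

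**Figure D5:**
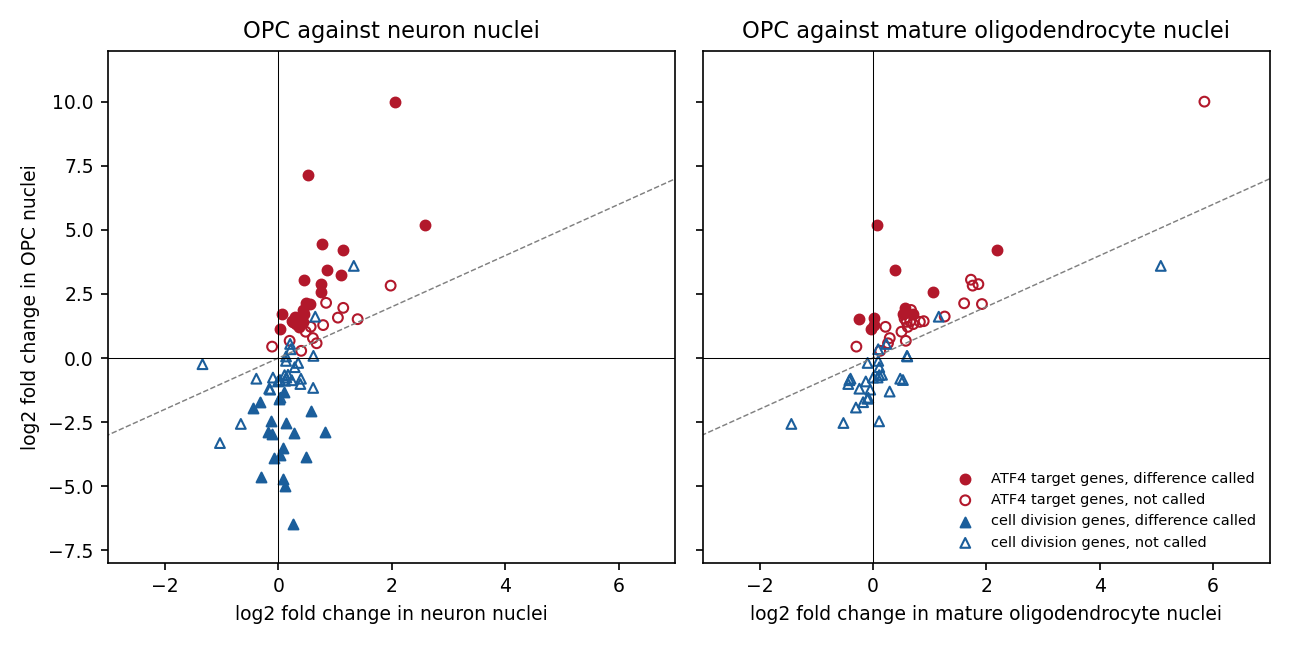
Log2 fold change, Sel1L SynCre over Sel1L fl/fl, in OPC nuclei (vertical axis) against that in neuron nuclei (left) and mature oligodendrocyte nuclei (right), with 1 point per gene, filled where the difference passed an adjusted p of 0.05. The dashed line marks equal effects. Most ATF4 targets lie above it, with 25 of 38 called against neurons and 11 of 33 against mature oligodendrocytes, and cell division genes lie below it against neurons, with 19 of 46 called, while none of 29 was called against mature oligodendrocytes.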

How the data were processed

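Nuclei from 4 frozen samples of cortex and hippocampus, 2 per genotype, had been sequenced by droplet 3′ RNA sequencing. The authors aligned reads with Cell Ranger 6.1.0 to GRCm38 (per the submitters' processing notes) with a Cre sequence added, and deposited unnormalized UMI counts of 32286 features per nucleus, filtered for cell-containing barcodes. Library totals were 122870443, 76617523, 75227337 and 74082610 UMIs, which limits precision for genes with few counts. No other sample's columns were used.

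Nuclei with more than 600 genes and under 5% mitochondrial UMIs were kept, and classes were set by marker counts with Python 3.11.15, NumPy 2.4.6, pandas 2.3.3 and SciPy 1.17.1. The gene limit is the study's, and the mitochondrial limit was set here, since the study gives no value for it. Likely doublets, which the study removed, were kept in the main results. Scrublet in Scanpy 1.11.5, at the doublet rate expected for each number of nuclei, marked them for an alternative. UMIs were summed per library and class and fitted in R 4.3.3 with edgeR 4.0.16 (filterByExpr, TMM, quasi-likelihood test, Benjamini-Hochberg adjustment at 0.05, prior count 0.125) over genotype. Differences between classes were tested as an interaction with the library as a block. The 13 genes of the class rules were not tested. Shares were compared by exact permutation over libraries. DESeq2 1.42.0, other filters, scaling, thinning, stricter member rules and omission of each library served as alternatives. The fits were tested on simulated data with a log2 change of 1.5. The OPC fit recovered 86.4% of the changed genes tested. The interaction recovered 52.8% against mature oligodendrocytes and 69.8% against neurons, so that many such changes would be missed there. The text names the 12 genes with the largest change in each direction among called genes of at least 20 UMIs that did not overlap between genotypes, 8 genes per interaction, and members of the 29 gene lists. The members and lists were chosen with earlier results of these data known. Gene positions are from GENCODE vM21 and promoters from RefSeq (GRCm38.p6). Results that need certain genes are not reported here.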

Additional observations from a re-analysis of the deposited data

Results flagged for a closer look

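The genotype effect differed between OPC and mature oligodendrocyte nuclei for 152 genes in the interaction test. The 8 genes named for this difference, given as the log2 effect in OPCs minus that in mature oligodendrocytes, were as follows. *Clic4* (an intracellular chloride channel protein) differed by 2.44 ± 0.26, with 44, 27, 133 and 74 UMIs in OPC nuclei. *Slc7a11* differed by 5.18 ± 0.65, and *Eps15* (an endocytic adaptor) by 1.75 ± 0.23. In the negative direction were *Zfp804b* at -2.75 ± 0.30, *Zfand4* at -3.41 ± 0.40, *Gm49678* at -2.83 ± 0.35, *Kcnb2* at -1.45 ± 0.19 and *Sgk1* at -2.45 ± 0.33. For *Zfand4* the OPC effect was -0.44 and that in mature oligodendrocytes 3.09, where the gene stood at 17.2, 22.6, 60.4 and 292 CPM. With likely doublets left out, the differences of *Zfp804b*, *Gm49678* and *Kcnb2* were -0.23, -1.45 and -1.18, and none passed the threshold (adjusted p = 0.94, 0.26 and 0.22). DESeq2 kept 7 of the 8 calls, and 0 were kept with no filter on low counts.

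Against neurons the effect differed for 274 genes. Of the 8 named, *Moxd1* differed by 4.15 ± 0.35, *Hif3a* by 4.12 ± 0.39, *Mei4* by 3.26 ± 0.32, *Asns* by 2.57 ± 0.27, *Slc7a5* by 2.52 ± 0.25 and *Lrp4* (a receptor of the LDL receptor family) by 1.95 ± 0.19. *Cpne4* differed by -2.69 ± 0.29. The fitted difference of *Top2a* was -7.05, a size that depends on the prior count, since OPC nuclei of Sel1L SynCre held 0 and 1 UMIs. These 8 calls were kept without each library, in DESeq2 and with likely doublets left out.

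Cre transcripts were counted in a library labelled as wild type. OPC nuclei of Sel1L fl/fl replicate 1 held 28 Cre UMIs, while the count of 0 in Sel1L fl/fl replicate 2 allowed at most 1.99 CPM. The source of these UMIs was not tested. In that library the ATF4 list summed to 1123 CPM and *Nupr1* had no UMI, as in the other control.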

How the results depend on the processing

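The 440 genes called in OPC nuclei became 166 in DESeq2, 26 with no filter on low counts and 276 with all libraries thinned to the smallest total, and ranged from 294 (without Sel1L SynCre replicate 1) to 522 (without Sel1L fl/fl replicate 2) when 1 library was omitted. Against mature oligodendrocytes the 152 genes became 21 in DESeq2, 0 with no filter and 40 with likely doublets left out, and ranged from 162 to 421 with 1 library omitted; 1380 genes had an unadjusted p under 0.05 in edgeR. Against neurons the 274 genes became 125 in DESeq2, 31 with no filter and 124 after thinning, and ranged from 274 to 352. Of the 24 named genes, 14 kept their call in DESeq2 and 6 with no filter, while none had 10 UMIs in every library. The difference in OPC share went from -0.767 to 0.381 points as each control was omitted. The replicate number coincided with sex, and deviations of same-numbered libraries correlated at 0.136 across genes in 2 pairs, which was not taken as pairing. A replicate block gave 587 genes, and all 120 called genes followed through the alternatives kept their call. With likely doublets left out, 94 of those 120 kept it and 3 reversed, *Grin2a* (0.41), *Rbfox3* (0.059) and *Camk2a* (0.17). Without Sel1L SynCre replicate 1, 88 kept it. Among genes not called, *Atf4* was at -0.075 under the stricter rule and from -0.15 to 0.23 with 1 library omitted, *Sgk1* from -0.15 to 0.36, and Cre from -0.33 (without Sel1L fl/fl replicate 2) to 7.05 (without Sel1L fl/fl replicate 1). The causes of these changes were not tested, beyond the smaller number of libraries, nuclei or UMIs that some settings leave.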
